A study of Drosophila melanogaster with 2 samples.

Results

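Intergenic peaks away from transcription start sites are sites far from gene starts where sunspot (ssp), tagged with eGFP, a green fluorescent protein, was found by chromatin immunoprecipitation in Drosophila melanogaster embryos. A peak was kept where its summit, the position of highest enrichment, lay outside every annotated gene body of any biotype and more than 500 bp from the nearest transcription start site (TSS). The rule kept 710 of the 4914 peaks of the authors' combined list on the 6 arms 2L, 2R, 3L, 3R, 4 and X (14.4%), out of 4948 peaks in the whole series. Of these, 292 lay 500 to 2000 bp from a TSS and 418 lay farther away. The rest of the list was made up of 2540 peaks within 500 bp of a TSS, 1439 intronic peaks and 225 exonic peaks. The rule used only position and annotation, but the combined list itself holds candidates that the authors kept by signal and reproducibility. Intergenic peaks therefore differ from candidates that were not kept by that choice, and values of such candidates stand beside theirs as a description only. The annotation counts transposable element copies as genes, which removes summits inside or near such copies.

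Whole embryos aged 0 to 24 h were used, so tissues and stages of embryogenesis were pooled. All of them carried the ssp-eGFP fusion, an insertion targeting ssp by the labels, and there was 1 group, ssp-eGFP embryo, with 2 biological replicates from separate samples of the same fly line. Chromatin was sonicated to 200 to 800 bp and precipitated with an antibody against GFP. Sex was not recorded, and the labelled control was not analysed here. Tissue markers cannot be checked, because peak lists hold no expression values.

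Sunspot is a nuclear protein known in Drosophila for raising the expression of E2f1, a cell cycle transcription factor, and of PCNA, the DNA polymerase clamp. Armadillo, the beta-catenin of the Wingless pathway, is known to restrain it. In the compact Drosophila genome, binding between genes can mark enhancers, insulators or start sites missing from the annotation, and the sequence near the centromeres is rich in remnants of transposable elements.

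The DNA under the strongest intergenic peaks is shown first, because 1 palindromic motif recurred there. This motif is the DNA replication-related element (DRE), TATCGATA, known in Drosophila as a binding sequence of DREF and BEAF-32. Each stretch is the summit with 50 bases on either side, read 5′ to 3′ on the plus strand from the RefSeq Release 6 genome, which is dm6. Capitals mark the DRE and its part CGATA, the TATA box TATAAA, runs of 8 A and the homeodomain core TAATTA, on either strand. The first 3 are the strongest peaks outside the second chromosome's right arm that held the DRE, at mRpS5 (chr3L:24536144-24536244), ey (chr4:696890-696990) and Lamp1 (chr2L:21559800-21559900). The other pair are the strongest off that arm with none of the 36 motifs searched, near Spf45 (chr2L:23075548-23075648) and FASN3 (chr3L:25747556-25747656).
mRpS5: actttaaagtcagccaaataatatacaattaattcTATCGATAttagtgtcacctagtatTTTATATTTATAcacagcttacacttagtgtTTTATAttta
ey: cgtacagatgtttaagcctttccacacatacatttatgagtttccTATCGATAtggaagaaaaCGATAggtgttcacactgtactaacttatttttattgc
Lamp1: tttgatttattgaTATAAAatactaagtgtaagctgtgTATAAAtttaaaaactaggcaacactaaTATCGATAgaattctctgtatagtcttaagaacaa
Spf45: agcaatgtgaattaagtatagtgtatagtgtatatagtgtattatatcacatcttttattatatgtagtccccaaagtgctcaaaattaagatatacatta
FASN3: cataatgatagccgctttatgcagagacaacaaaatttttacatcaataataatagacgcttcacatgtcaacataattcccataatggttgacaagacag

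A second set is shown for an 8-letter word, CACTGAGA, that was picked out after the word counts had been seen. These are the 5 strongest intergenic peaks off the second chromosome's right arm that held it within 50 bp of the summit, each turned so that the word, in capitals, reads 5′ to 3′. They lay near Gr89a (chr3R:16497521-16497621, plus strand), hng3 (chr3L:762503-762603, minus strand), CG31797 (chr2L:19226476-19226576, minus strand), CG7320 (chr3L:18204140-18204240, minus strand) and ab (chr2L:11209032-11209132, plus strand). Each of these windows and of the 5 above occurred at 1 place on the 6 arms as an exact match. Diverged copies were not counted, and the mRpS5 window is alike over long stretches to the reverse complement of the Lamp1 window.
Gr89a: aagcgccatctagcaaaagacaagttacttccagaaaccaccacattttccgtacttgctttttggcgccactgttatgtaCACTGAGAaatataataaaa
hng3: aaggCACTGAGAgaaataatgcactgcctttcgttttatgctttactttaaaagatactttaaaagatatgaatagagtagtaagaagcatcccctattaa
CG31797: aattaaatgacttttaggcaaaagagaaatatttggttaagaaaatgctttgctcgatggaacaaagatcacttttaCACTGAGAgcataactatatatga
CG7320: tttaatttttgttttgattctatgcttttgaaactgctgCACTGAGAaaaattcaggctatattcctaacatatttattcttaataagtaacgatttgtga
ab: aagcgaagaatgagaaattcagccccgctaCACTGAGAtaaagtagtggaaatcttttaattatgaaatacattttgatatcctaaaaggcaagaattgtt

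Intergenic peaks were weaker than peaks at start sites and close in signal to intronic ones. Peak signal is the value the authors' peak caller gave to each peak, compared here only within the combined list. Its median was 109 for the 710 intergenic peaks, with quartiles of 81.6 and 175 and a range of 2.51 to 3648. The median was 119 at 500 to 2000 bp and 107 farther out, against 118 for intronic, 82.2 for exonic, 164 for TSS and 133 for all combined peaks. Of the intergenic peaks, 26 (3.66%, Wilson 95% interval 2.51 to 5.31%) were in the top decile of the combined list by signal, against 38 (2.64%) of the intronic and 419 (16.5%, 15.1 to 18.0%) of the TSS peaks. The score, which the authors capped at 1000, was at its cap in 77.7% of the intergenic and 90.3% of the TSS peaks. Such intervals cover counting error only, since peaks are not independent, and with 1 group of 2 replicates no difference between classes was tested.

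**Figure D1:**
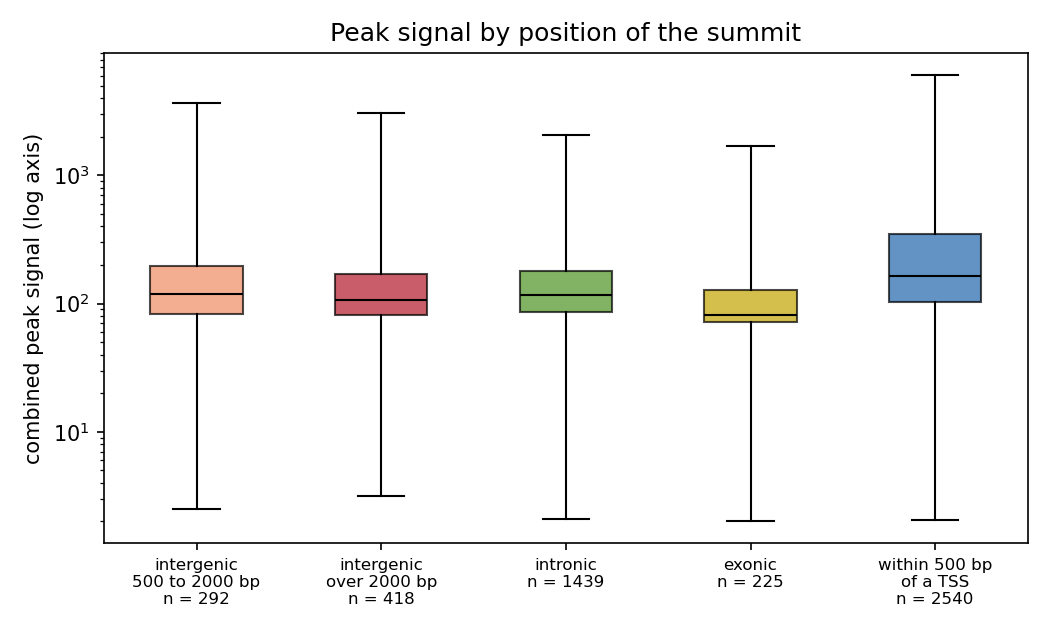
Combined peak signal (log axis) by position of the summit; boxes span the quartiles, lines mark the medians and whiskers reach the lowest and highest peak. The intergenic medians of 119 and 107 sit beside the intronic 118 and below the 164 of peaks within 500 bp of a TSS.

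Fewer intergenic peaks than not were found in each replicate separately. A peak counted as found where it shared at least 1 base with a peak of that replicate's own thresholded list. Of the 710, 321 were in both lists (45.2%, 41.6 to 48.9%), against a background of 56.5% over all combined peaks. The share was 146 of 292 at 500 to 2000 bp and 175 of 418 (41.9%) farther out, against 46.8% of intronic, 27.1% of exonic and 67.8% of TSS peaks. A further 202 intergenic peaks were in 1 list (28.5%), 120 of them in that of replicate 1 (16.9%) and 82 in that of replicate 2 (11.5%). Another 187 were in neither (26.3%). Over all combined peaks 24.2% were in 1 list, 14.3% in that of replicate 1 and 9.93% in that of replicate 2, and 19.3% in neither. The authors' conservative list overlapped 582 (82.0%, 79.0 to 84.6%), against a background of 87% over all combined peaks. Nearly all intergenic peaks, 695 of 710, overlapped a ranked candidate, thresholded or not, in each replicate, as did 4827 of the 4914 combined peaks.

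Sharing went with signal in the 3 classes that were cut by signal, intergenic, intronic and TSS peaks. This rise is partly set in advance, because each replicate list was itself thresholded and the combined signal was close to the sum of the replicate signals. Cut at the quartiles of all combined peaks, 12 of 239 intergenic peaks in the lowest quartile were in both lists (5.02%), 46 of 190 in the second (24.2%), 145 of 159 in the third (91.2%) and 118 of 122 in the highest (96.7%, 91.9 to 98.7%). At matched signal the intergenic shares were near the intronic ones of 5.39, 26.8, 86.7 and 100%. The TSS shares were 16.2, 33.2, 89.2 and 99.5%, with the widest gap between classes in the lowest quartile. That quartile held 33.7% of the intergenic and 17.0% of the TSS peaks.

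**Figure D2:**
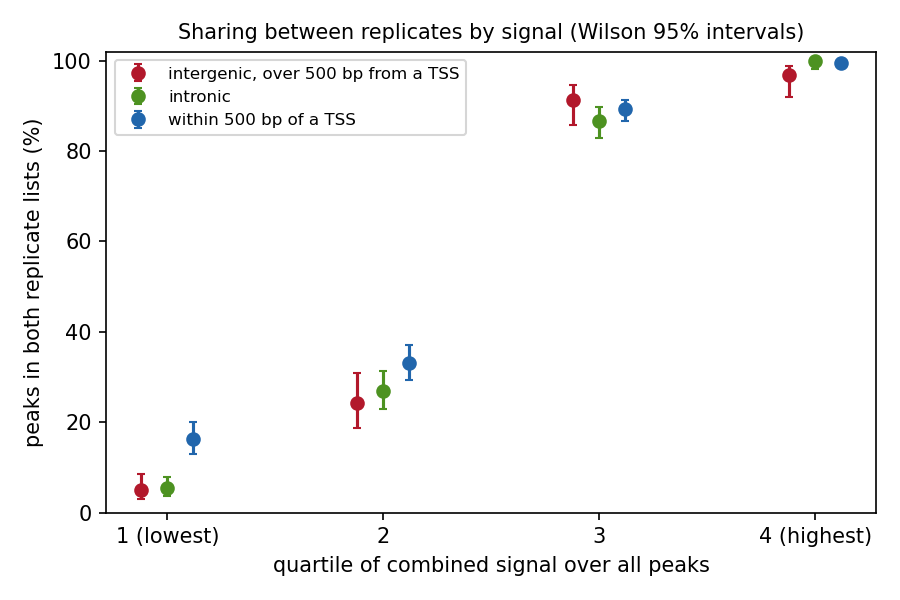
Share of peaks in both replicate lists by quartile of combined signal, for intergenic, intronic and TSS peaks; points are shares and bars Wilson 95% intervals. Intergenic shares run from 5.02 to 96.7%, and the 3 classes lie farthest apart in the lowest quartile.

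Signals of the shared intergenic peaks were mostly lower in the replicate 2 list. Among the 321, replicate 2 over replicate 1 had a median log2 ratio of -0.23 (SD across peaks 0.36), against -0.21 and 0.32 over all 2776 combined peaks in both lists, and 248 of the 321 were higher in replicate 1. These ratios include any difference in scale between the lists. The combined signal was close to the sum of the replicate signals, with a median ratio of 0.995 and quartiles of 0.974 and 1.01. In 26 intergenic peaks the combined signal instead lay below the higher replicate signal, and 25 of those peaks overlapped another combined peak. An example is a peak near IntS3, a subunit of the Integrator complex, with a combined signal of 6.25 beside 164 in replicate 1 and 162 in replicate 2. A second entry 201 bp away, of 327, overlapped the same replicate peaks. The replicate signals of such entries are thus shared with their neighbours by the overlap rule.

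**Figure D3:**
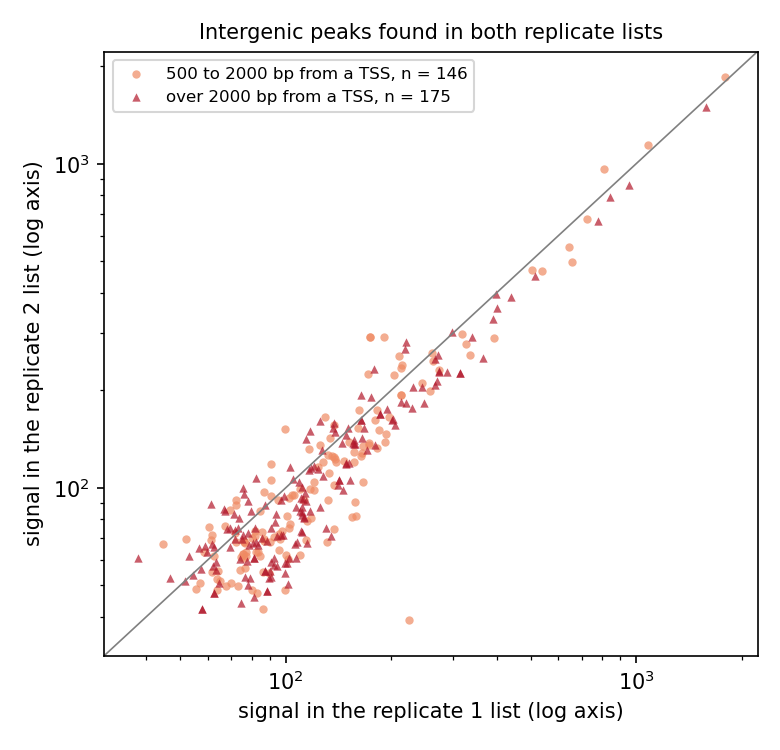
Signal in the replicate 2 list against the replicate 1 list (both log axes) for the 321 intergenic peaks found in both; circles lie 500 to 2000 bp from a TSS, triangles farther, and the line marks equal signal. Most points, 248, lie below the line. The one far below it, near CG10527, had 224 in replicate 1 and 39.0 in replicate 2. Its combined signal was below that replicate 1 signal, so these values may be shared with a neighbouring peak by the overlap rule.

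The strongest intergenic peaks clustered towards the centromeres. Of the 26 in the top decile of the combined list, 15 lay within the 5 Mb at the centromeric end of an arm (57.7%, 38.9 to 74.5%) and 1 lay on chromosome 4, against 89 of the 419 TSS peaks in that decile (21.2%, 17.6 to 25.4%). Chromosome 4 held 39 of those 419. Over all 710 the centromeric count was 145 (20.4%, 17.6 to 23.5%), and over all 2540 TSS peaks it was 280 (11.0%, 9.86 to 12.3%). The centromeric share was thus higher among the strongest peaks in both classes. Intergenic peaks as a whole were not denser there: eligible sequence, meaning bases that the rule could have kept, held 15.7 intergenic peaks per Mb in the centromeric ends and 25.5 per Mb elsewhere. Failing candidates, which were ranked by the authors but overlapped no thresholded list, numbered 593 per Mb in the centromeric ends and 1057 per Mb elsewhere. The centromeric region was first defined after earlier results of these data.

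The highest signal was at Haspin (FBgn0046706), a kinase of histone H3, with a peak on 2R from 4012567 to 4013066 and its summit 1309 bp upstream of the TSS. It had 1796 in replicate 1 and 1850 in replicate 2, and 3648 in the combined list. Next at this distance was mRpS5 (FBgn0287187), a protein of the mitochondrial ribosome, where the peak on 3L from 24535966 to 24536415 had 1082 and 1143 in the replicates, 2223 combined, with its summit 1042 bp upstream. The peak nearest to CG41378 had 808 and 966 in the replicates, with 85.1% of its window soft-masked as repeat. All 3 lay in the centromeric ends.

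The DRE stood within 50 bp of the summit in 4 of the 10 strongest intergenic peaks, those at Haspin, mRpS5, ey and Lamp1, and in 3 of the other 700. Lamp1 was number 10 by signal, and this cut was not among those set beforehand. The mRpS5 and Lamp1 windows resemble each other beyond the motif, so they may not be separate cases. At ey (FBgn0005558), the Pax6 transcription factor of eye development, the summit lay 749 bp upstream in the 1633 bp gap shared with myo on chromosome 4, with 655 in replicate 1 and 497 in replicate 2, and the motif's middle was 1 bp from the summit. At Lamp1, a lysosomal membrane protein, the peak had 538 and 467 in the replicates and lay 13539 bp from the gene, but 937 bp from the annotated start of a Dm88 element. The other 3 were much weaker, with combined signals of 129 near Tim17b, a mitochondrial import protein, 83.7 near Sumo and 82.4 near Alp13. In all, 7 of 710 intergenic peaks (0.986%, 0.478 to 2.02%) held the DRE, 6 of them at 500 to 2000 bp, against 0.132% of failing intergenic candidates and 4.80% of TSS peaks.

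Other strong peaks at 500 to 2000 bp stood at varied genes. The 12 strongest found in both replicates had combined signals of 600 to 3648. The peak at tara, a coregulator of transcription, had 645 in replicate 1 and 554 in replicate 2, and its summit was 3162 bp upstream of that gene but 906 bp upstream of a long noncoding RNA. Stlk, a pseudokinase of the STRAD family, had 504 and 472, and Cndp2, a dipeptidase, had 392 and 291. Gprk1, a kinase of G protein-coupled receptors, had 723 and 677, above its combined signal of 664. Another combined peak had its summit 546 bp away, and these replicate values may be shared with it by the overlap rule. The summits at sp3 and CG17896 lay 568 and 523 bp upstream, near the limit of the rule, with combined signals of 610 and 600. Closest to the limit were peaks at 503, 503 and 505 bp with combined signals of 83.1, 121 and 6.15, and the nearest ones outside it lay at 500, 497 and 496 bp with 176, 170 and 77.1.

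Beyond 2000 bp the 12 strongest peaks found in both replicates had combined signals of 603 to 3089, and 7 of them lay in the centromeric ends. The first was in the 38168 bp gap between CG41128 and an S element on 3R, from 3789549 to 3790037, with 1583 in replicate 1 and 1502 in replicate 2. It was 39445 bp from the nearest protein-coding TSS. The second lay 7212 bp upstream of Spf45, a splicing factor, with 956 and 858. The third lay between FASN3, a fatty acid synthase, and a 17.6 element, with 844 and 789. A peak of 781 and 667 stood beyond the 3′ end of Su(z)2, a relative of Polycomb group genes. On 2R, from 22802809 to 22803134, a peak of 391 and 333 lay beyond the 3′ end of CycB, a mitotic cyclin, 3348 bp downstream of its TSS in a gap of 1340 bp. The peak between the COX7AL2 and CG31668 genes had 398 and 395, another near Spf45 had 402 and 359, and 1 whose nearest protein-coding gene is RYa, a neuropeptide, 65310 bp away, had 298 and 304. Those of the 12 at chinmo and Slmap are given with their neighbours. At foxo, the forkhead transcription factor of insulin signalling, the summit lay 3324 bp upstream, with 365 and 252.

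Several genes were nearest to many intergenic peaks. Most peaks, 9 each, fell to hng3, with 3 in both lists, and CG13898, with 5 in both lists. Chinmo and Slmap are described because all 5 peaks of each were in both lists, as were the 5 at Ids, a choice made after their values were seen. Chinmo, a BTB zinc-finger factor of neuronal identity, was the nearest protein-coding gene of 5 peaks, 1581 to 18416 bp upstream, all of them in both lists, with combined signals of 106 to 966. Slmap, a membrane-anchored protein, also had 5, all in both lists, 1024 to 11427 bp upstream, with 153 to 815. No other combined peak lay within 1000 bp of any chinmo peak.

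The fullest gap was the 96687 bp in front of RpL15, a protein of the large ribosomal subunit, which held 8 intergenic peaks, 3 of them in both lists. The strongest stood 1459 bp upstream of RpL15 with 262 in replicate 1 and 260 in replicate 2. The 75047 bp between NijA and CG43245 held 7 peaks of 90.0 to 484, with 4 in both lists. A further pair of gaps held 6 each. In front of CG7560, 5 of the 6 peaks, spread over 6919 bp, were in both lists, with combined signals of 192, 399, 382, 512 and 255 in order along the arm. The other, between tRNA:Ile-TAT-1-2 and a roo element, had 3 of 6 in both lists. Most intergenic peaks stood alone: 366 of the 502 gaps with a peak held 1, and 136 held more.

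Density fell with distance from start sites. There were 35.2 intergenic peaks per Mb of eligible sequence at 500 to 2000 bp and 18.2 per Mb farther out, while failing candidates numbered 905 and 923 per Mb. At 500 to 2000 bp, gaps between divergent genes held 43.2 per Mb, tandem gaps 34.2 and convergent gaps 25.6, against 949, 897 and 864 failing candidates per Mb in the same order. Farther out the values were 18.1, 17.7 and 20.5 intergenic peaks per Mb, so the order by gap type was not kept. Summits lay upstream of the nearest TSS in 76.4% of peaks at 500 to 2000 bp (71.2 to 80.9%) and in 50.5% farther out (45.7 to 55.2%), against 69.6% and 54.0% of failing candidates at the same distances. Leaving out gene bodies removes most sequence just downstream of start sites, so part of the upstream share is set by the rule. Of the ranked candidates in eligible positions 2.38% were kept in the combined list, 3.70% at 500 to 2000 bp and 1.91% farther out, against 12.4% of candidates within 500 bp of a TSS and a background of 3.88% over all candidates. The nearest TSS belonged to a protein-coding gene for 412 peaks, a noncoding RNA for 176, a transposable element for 97 (13.7%, against 22.8% of failing candidates), a tRNA for 15 and a pseudogene for 10.

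The X chromosome held few intergenic peaks. Its 59 came to 13.02 per Mb of eligible sequence, against 17.7 on 3R, 22.6 on 2R, 26.9 on 2L and 29.6 on 3L. Failing candidates on X numbered 951 per Mb, between 807 on 3L and 1061 on 3R. The other combined peaks were most frequent on X among these 5 arms, with 35.7 per Mb of whole arm against 28.9 to 32.0. The median signal of the 59 was 116. Because sex was not recorded, the share of males is unknown and its part in the X values was not tested. Chromosome 4, almost without eligible sequence at 0.0618 Mb, held 2, the one at ey and one of 141 between mGluR and an INE-1 element.

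**Figure D4:**
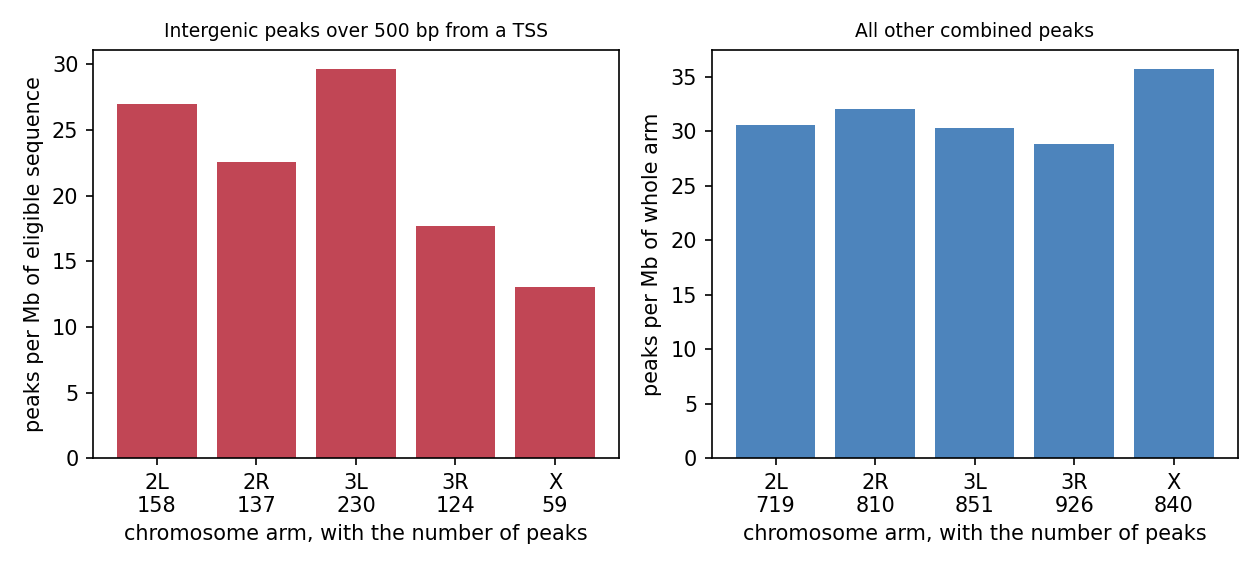
Intergenic peaks per Mb of eligible sequence (left) and all other combined peaks per Mb of whole arm (right) on the 5 large arms, with the number of peaks under each arm. X has the lowest bar on the left, 13.02, and the highest on the right, 35.7.

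The 3 peaks farthest from any TSS stood in the centromeric sequence of the third chromosome, at 75579, 53842 and 47515 bp from the start of the nearest transposable element. The farthest, on 3R, had no replicate 1 peak and 62.4 in replicate 2, and its window was wholly soft-masked. The second, on 3L, had 114.6 in replicate 1 and 142 in replicate 2. The third, on 3R, had 58.7 and 66.3. Soft-masked bases made up more than 50% of the window in 97 of 710 intergenic peaks (13.7%), against 7.12% of failing intergenic candidates and 12.4% of TSS peaks, and 3 windows had an exact second copy on the 6 arms. How reads from repeated sequence were placed is not given in the sources used here, and its part in the centromeric values was not tested.

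Intergenic peaks sat on AT-rich sequence. The window of 50 bases on either side of the summit was 35.6% G and C on average (SD 9.81), against 40.8% in the flanks 500 bp away and 45.6% in failing intergenic candidates. TSS peaks, at 35.3%, and intronic peaks, at 33.9%, were alike in this. Composition rose again close by, to 43.8% at 260 bp before the summit, against 40.6% at 980 bp before it. Failing candidates ran the other way and were most G and C rich at their summits, at 45.6%.

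Motif counts are given beside composition for 4 of the 36 motifs, the TATA box, the homeodomain core, the run of A and the BEAF-32 core. Both strands were searched out to 50 bp on each side of the summit, and a match is a run of letters, not a shown site. The core promoter word TATAAA was in 19.6% of intergenic peaks (16.8 to 22.7%), 15.8% at 500 to 2000 bp and 22.2% farther out, against 7.97% of failing candidates, 11.97% of flanks and 20.9% of TSS peaks. Within windows under 30% G and C it was in 36.0% of intergenic peaks and 32.9% of failing candidates, between 30 and 35% in 19.1 and 20.5%, between 35 and 40% in 7.14 and 12.7%, between 40 and 45% in 9.89 and 7.88%, and at 45% or more in 7.69 and 3.05%. The homeodomain core TAATTA was in 8.31% against 5.85% of failing candidates, and 17.1 against 16.7% in windows under 30% G and C. In the other 4 classes of composition it was lower in intergenic peaks, at 6.79, 2.68, 3.30 and 2.56% against 10.1, 8.75, 6.70 and 3.35%. Runs of 8 A were in 6.62% against 4.50%, but were less frequent in intergenic peaks in all 5 classes, at 11.0, 8.64, 5.36, 1.10 and 0.855% against 14.8, 12.3, 8.38, 5.30 and 1.41%.

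The BEAF-32 core CGATA, which is part of the DRE, was in 12.1% of intergenic peaks (9.91 to 14.7%), against 8.78% of failing candidates and 25.6% of TSS peaks. It was 13.4% at 500 to 2000 bp and 11.2% farther out. By composition its share was 12.3, 8.64, 20.5, 8.79 and 11.1% of intergenic peaks in the 5 classes from under 30% to 45% or more G and C, against 7.57, 10.2, 9.99, 10.1 and 7.97% of failing candidates, so the order was not kept in all classes. Other words of promoters and insulators were rare: GGTCACAC, bound by M1BP, was in 1 intergenic peak (0.141%, against 0.188% of failing candidates), CATCNCTA (Ohler motif 7) in 5 (0.704%, against 0.567% of failing candidates) and the CTCF core AGGNGGC in 20 (2.82%, against 5.08% of failing candidates). The initiator TCAGT, which is contained in the reverse complement of CACTGAGA, was in 19.7% against 15.2%. ATATATAT, which can overlap TATAAA, was in 2.68% against 1.02%. The E2F forms TTTGGCGC and TTTCCCGC were in 4 and 2 intergenic peaks, 0.563 and 0.282%, against 0.629 and 0.699% of failing candidates.

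Shares of the remaining words are given for intergenic peaks and then for failing candidates. Windows of failing candidates were richer in G and C, at 45.6% against 35.6%, and these words were not compared by class of composition. Higher in intergenic peaks by share was CAGGTAG of Zelda, the activator of the early zygotic genome, in 5 peaks (0.704%, 0.301 to 1.64%) against 0.403%. So was TGCATAC of Su(Hw), in 2.11% against 1.49%. The Grainy head word AACCGGTT was in 1 peak (0.141%, 0.0249 to 0.793%) against 0.0904%. The Ewg word GCATGCGC was in 3 (0.423%, 0.144 to 1.23%) against 0.278% and the Mad word GGCGCC in 2.11% against 1.71%. The Su(H) word GTGGGAA was in 1.69% against 1.51%, the Runt word TGTGGTT in 1.55% against 1.39% and the Tramtrack word AGGATAA in 1.27% against 1.17%. For each of these words listed as higher, the Wilson interval included the share of failing candidates. Lower were GAGAG, bound by the GAGA factor, in 8.73% against 11.6%, GAGAGAGA, which contains it, in 0.282% against 0.556%, CACACACA in 1.27% against 3.32% and CAGCAGCA in 0.423% against 2.17%. CTTTGAT of TCF, the DNA-binding partner of Armadillo, was in 10 intergenic peaks (1.41%) against 1.76%, and its helper GCCGCC in 1.83% against 6.03%. The nuclear receptor word AGGTCA was in 2.25% against 2.27%, the Bicoid word TAATCC in 2.82% against 2.96%, the Pho word GCCATNTT in 2.11% against 2.63% and the Ets word CCGGAAG in 0.563% against 0.723%. The AP-1 word TGANTCA was in 1.13% against 1.56%, the B box of tRNA genes, GGTTCGA, in 0.141% against 0.699% and the CREB word TGACGTCA in 0 intergenic peaks against 0.163%. Of the E-boxes, CAGGTG was in 2.82% against 3.78%, CACGTG in 0.986% against 1.41% and CAGCTG in 2.96% against 4.72%. None of the 36 motifs was within 50 bp in 218 intergenic peaks (30.7%).

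Words of 6 and 8 letters were counted without a prior list. Among 6-letter words held by at least 3% of intergenic peaks, the largest ratio to failing candidates was that of ATACTA, in 8.17% against 2.27%, then AATATA in 24.4% against 7.15% and TACTAA in 7.61% against 2.28%. Next came ATATAA in 21.7%, then ATTATA in 18.2%, ATCTAG in 4.93% and ACCTTA in 5.92%. The list ended with GTAGTA in 4.79%, then ATATTA in 17.6% and ATCTAA in 71 intergenic peaks. ATACTA was in 7.37% of intronic and 7.68% of TSS peaks. The 8-letter words were led by ATCTTTTA, in 2.82% against 0.351%, TACACTGA, in 2.25% against 0.292%, ACTGAGAG, in 2.11% against 0.306%, and AAGAATAT, in 2.25% against 0.330%. CAATTATA, AATAAGTA, CACTGAGA, TAAAACTA, TCTTTAAA and TTAAAGAA followed.

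TACACTGA, CACTGAGA and ACTGAGAG share letters, and copies of CACTGAGA, the word whose position was measured, lay mostly on 1 side of the summit. CACTGAGA lay within 100 bp of the summit in 53 intergenic peaks (7.46%, 5.75 to 9.64%), 5.48% at 500 to 2000 bp and 8.85% farther out. It was in 6.05% of intronic peaks (4.93 to 7.40%), 1.65% of TSS peaks and 1.05% of failing intergenic candidates. Within 300 bp, the summit lay on the 3′ side of the nearest copy in 65 of 75 intergenic peaks, at a median of 64 bp, and in 124 of 140 intronic peaks, at a median of 71 bp. TSS peaks had 64 and 14 on the same sides. In failing candidates the sides were even, 423 and 425. Of the 56 copies within 100 bp of intergenic summits, 40 were soft-masked as repeat, as were 62 of the 93 copies at intronic summits. The 5 peaks printed with this word, the strongest by choice, had combined signals of 305, 289, 230, 156 and 131. In those at Gr89a and CG31797 the word lay on the other side of the summit.

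**Figure D5:**
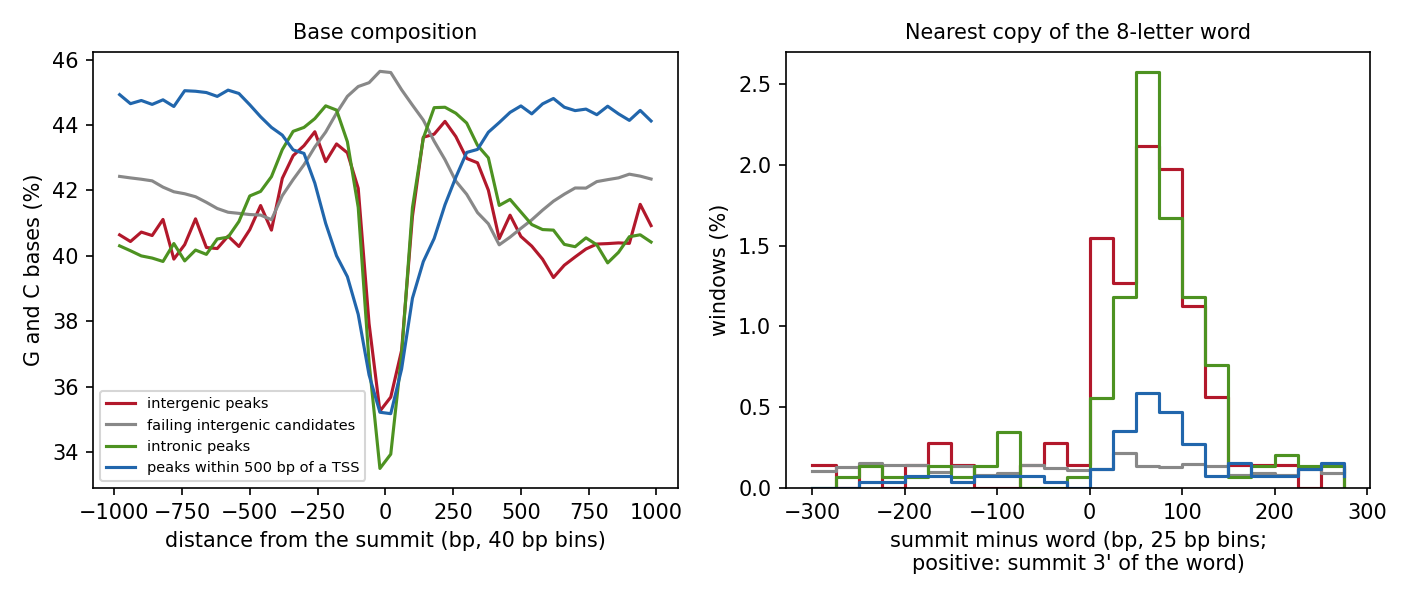
Left, share of G and C bases against distance from the summit in 40 bp bins; right, distance of the summit from the nearest copy of the 8-letter word CACTGAGA in 25 bp bins, for intergenic peaks (red), failing intergenic candidates (grey), intronic peaks (green) and TSS peaks (blue). Intergenic peaks dip to 35.2% at the summit, and their summits lie mainly on the 3′ side of the word.

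Words drawn from the strongest TSS peaks were sought in the intergenic ones. The 6 leading 7-letter words, ranked by the ratio of their shares between the strongest and the weaker TSS peaks, began with GTGTGAA in 9.61% of the strongest, then GTTCACA in 5.51% and ACATCAA in 4.09%. They ended with AGTGGAA in 6.93%, then TATAACA in 6.46% and GTGAGAA in 4.57%. At least 1 of them was in 32 of the 178 strongest intergenic peaks, those of 175 or more (18.0%, 13.03 to 24.3%), in 13.5% of the weaker 355 (10.4 to 17.5%) and in 7.46% of failing intergenic candidates. The same words were in 29.0% of the 635 strongest TSS peaks and 7.72% of the weaker 1270, which are the values that chose them. GTGTGAA alone was in 7 of the 178 (3.93%) and in 6 of the 355 (1.69%), with overlapping intervals.

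Intergenic peaks at developmental genes were counted by list. Each peak was given to the protein-coding gene whose TSS was closest, and lists were counted beside all combined peaks. Of the segmentation and Hox list, 7 intergenic peaks (0.986%) fell to 6 of 29 genes, against 0.468% of all combined peaks and 1.08% of failing candidates. The strongest stood 4332 bp upstream of slp2, a pair-rule forkhead factor, with 290 in replicate 1 and 227 in replicate 2, and the next 8152 bp downstream of the TSS of odd, a zinc-finger pair-rule factor, with 81.4 and 46.0. The dorsoventral list had 9 (1.27%, against 0.387% of all combined peaks and 0.536% of failing candidates) at 4 of 19 genes. Of these, 3 lay upstream of Doc2, a T-box factor of the heart and amnioserosa, the strongest with 151 and 153. Another 3 lay upstream of tup, a LIM-homeodomain factor, the strongest with 67.9 and 74.7. The 24 neural and Notch target genes of the list had 0 intergenic peaks, against 0.163% of all combined peaks and 0.386% of failing candidates. That list does not cover every gene of the kind. Outside it, a peak lay 1758 bp upstream of E(spl)malpha-BFM, of the Enhancer of split complex, with 154 in replicate 1 and 81.6 in replicate 2. Another lay 512 bp upstream of E(spl)m2-BFM, of the same complex, with 84.5 and 84.9.

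Genes of the pathways known for ssp had few intergenic peaks, near the share of all combined peaks for the Wingless list and below it for the cell cycle list. The Wingless pathway list had 4 intergenic peaks (0.563%, against 0.549% of all combined peaks and 0.306% of failing candidates) at 3 of 30 genes, and none was in both lists. The strongest lay 4475 bp upstream of Wnt4, a Wnt ligand, with no replicate 1 peak and 84.5 in replicate 2, and the next 11095 bp upstream of wg, the Wingless ligand, with 82.9 in replicate 1 only. Of the E2F, DREAM and cell cycle list, only CycB had one (0.141%, against 0.285% of all combined peaks and 0.0139% of failing candidates). No intergenic peak had the start of ssp, E2f1 or PCNA as its nearest TSS. The closest lay 6608 bp from ssp, 99944 bp from E2f1 and 50838 bp from PCNA.

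The other lists had 0 to 7 intergenic peaks each. Ribosomal protein genes had 7 (0.986%, against 1.42% of all combined peaks and 0.553% of failing candidates), 5 of them at RpL15. Another stood at RpL38, 877 bp upstream, with 172 in replicate 1 and 225 in replicate 2. Muscle genes had 4 (0.563%, against 0.305% of all combined peaks and 0.0765% of failing candidates). Their strongest stood at TpnC41C, a troponin C, with 156 and 121, and the next at bin, a forkhead factor of visceral mesoderm, with 153 in replicate 1 only. Cuticle protein genes had 4 (0.563%, against 0.102% of all combined peaks and 0.640% of failing candidates), led by Cpr76Ba, with 211 and 255, and Cpr65Eb, with 83.4 and 66.5. The 19 insulator and promoter protein genes had 0, against 0.244% of all combined peaks and 0.00696% of failing candidates.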

How the data were processed

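The data were peak lists on dm6 from 2 biological replicates of ssp-eGFP embryos. Per the deposited file notes, each replicate's lists derive from its own alignment and the combined lists from both alignments, with peaks ordered by irreproducible discovery rate (IDR). No aligner or peak caller is named in those notes or in the labels. In the deposited lists the signal is the authors' value per peak, and no scaling across lists is stated. The deposited score is the IDR score, capped at 1000 by the authors. Depth is unknown, since these lists hold no read counts, so no precision from counting reads is given. In the ranked lists, 16 further columns matched no sample by name and were left out.

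Summits were assigned with the Ensembl BDGP6 annotation, including its transposable elements, and coordinates count from 1. Sequence and soft-masking came from RefSeq Release 6. Shared peaks overlapped by at least 1 bp. Failing candidates were ranked candidates that overlapped no thresholded list, 28754 of them in eligible intergenic positions. Motifs, words of 6 letters (held by at least 3% of peaks) and 8 letters (at least 2%) were sought within 50 bp of the summit. Centromeric ends were the 5 Mb of each large arm next to the centromere, by coordinate the first on 2R and 3R and the last on 2L, 3L and X. Shares have Wilson 95% intervals, and no test was made, since there is 1 group of 2 replicates.

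Named were the 12 strongest peaks of each distance class in both lists, all on chromosome 4, the 3 farthest from a TSS, the 3 fullest gaps with ties, the 3 nearest the 500 bp limit on each side, the 2 strongest of each of 9 gene lists, peaks at ssp, E2f1 and PCNA, and the 10 leading words of each length. Others were chosen after their values were seen, as were the words taken from TSS peaks and CACTGAGA. The rule, gene lists and motifs were chosen with earlier results of these data known.

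Alternatives were the conservative list, each replicate's list, peaks above the median signal, limits of 200 and 1000 bp, protein-coding genes only, whole intervals, 1 entry per interval, 50% reciprocal overlap, summits within 100 bp, ranked candidates, windows of 100 bp each side and flanks. Added after the data were seen were an annotation without transposable elements and lists without overlapping peaks or without signals under 20. The steps were tested on simulated data: 500 of 500 random positions and 400 of 400 shifted peaks were assigned as by direct search, and a planted 6-letter and a planted 8-letter word each ranked first. Python 3.11.15, numpy 2.4.6, pandas 2.3.3, scipy 1.17.1 and matplotlib 3.10.9 were used.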

Additional observations from a re-analysis of the deposited data

How the results depend on the processing

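The number of intergenic peaks was 437 to 456 with 1 replicate left out, 281 among peaks above the median signal, and within 1.5 times of 710 otherwise, from 577 beyond 1000 bp to 954 beyond 200 bp. Without transposable element annotations it was 767, which include all 710. The share over 2000 bp was 58.9%, and 72.4% beyond 1000 bp, 71.1% with protein-coding genes only and 62.8% without transposable elements; single replicates gave 56.8 to 57.9%. The share in both replicate lists was 93.6% above the median signal and 36.9% with 50% reciprocal overlap. The median signal was 71.4 to 84.8 in single replicates, whose scale differs, and 211 above the median. The divergent share was 21.5% beyond 1000 bp and 31.2% with protein-coding genes only, and 24.8 to 25.6% in single replicates. The share in centromeric ends and on chromosome 4, 20.7%, was 20.2 to 26.3% in single replicates, the highest from the list of replicate 2, and 26.0% above the median signal. TATAAA was in 33.1% within 100 bp, 11.97% of flanks and 19.7 to 20.4% in single replicates. Of the 10 leading 6-letter words, 5 were again among the first 10 within 100 bp and 1 against the flanks of the same peaks, so the leading words depend on the background. Of 67 settings of these results, 48 stayed within the spread and 19 moved; for the moved ones the cause was not tested beyond what the setting itself changes. No paired analysis was possible because there is 1 group and no test. Without read counts, weak peaks cannot be given a counting error.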

Other observations

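The intergenic peak closest to ssp, 4452 bp upstream of its neighbour vers on 3L, had a combined signal of 445 and 231 in replicate 1. No replicate 2 candidate overlapped it, thresholded or not. Of the 710 intergenic peaks, 7 had a candidate in replicate 1 only and 8 in replicate 2 only, and this was the strongest of them.

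Near CG41128 on 3R a pair of entries with summits 201 bp apart, of 442 and 316, shared 1 peak in each replicate, with 174 in replicate 1 and 293 in replicate 2. Their log2 ratio of 0.75, replicate 2 over replicate 1, was the highest among the 321 shared peaks.

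On X, the strongest intergenic peak after that at CG17896 stood 819 bp from the nearest TSS at ph-d, a Polycomb group gene, with 214 in replicate 1 and 193 in replicate 2. It is named here after its value was seen.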
